A study of Homo sapiens with 16 samples.

Results

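Chemokines made by the cancer cells themselves were followed across 16 RNA libraries of 2 human bladder cancer cell lines. The 10 genes were CXCL1, CXCL2, CXCL3, CXCL8, CXCL10, CXCL11, CXCL16, CCL2, CCL5 and CCL20, taken by name from the 58721 genes of the count table, and all 10 were present in it. RT112 is a luminal and SCaBER a basal bladder cancer cell line. Each line was transfected with 10 nM (per the labels) of a small interfering RNA (siRNA), either siFOXA1.1 or siFOXA1.2 against FOXA1, a transcription factor of luminal urothelial cells, or siControl.1 or siControl.2 as control. Every siRNA had 2 libraries per line, numbered in the labels as experiment batch replicates 1 and 2. RT112 was grown in RPMI and SCaBER in DMEM, so that line and medium cannot be told apart, and each subtype is represented by a single line. Nothing in the labels says that the replicates were separate cultures, so p-values measure the spread between these libraries.

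Chemokines are small secreted proteins that draw leukocytes along a concentration gradient by binding receptors on their surface. CXCL1, CXCL2, CXCL3 and CXCL8 attract neutrophils through CXCR2, CXCL10 and CXCL11 are interferon-induced ligands of CXCR3 on activated T cells, and CCL20 is the ligand of CCR6. CCL2 attracts monocytes, CCL5 attracts T cells and monocytes, and CXCL16 is made as a membrane-bound ligand of CXCR6 that proteases release from the cell surface. In epithelial cells the neutrophil chemokines and CCL20 are classical targets of NF-kB, while CXCL10 and CXCL11 are classical targets of interferon signalling.

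Library totals were 6622473 to 7604581 counts in RT112 and 4528513 to 6914951 counts in SCaBER. Levels are given as CPM, counts scaled to a library total of 1000000. A floor of detection was set at 3 counts, which covers counting error only and equalled 0.394 to 0.453 CPM in the RT112 libraries and 0.434 to 0.662 CPM in those of SCaBER. FOXA1 itself had 137 to 266 counts in the RT112 control libraries, 9 and 22 counts under siFOXA1.1, and 63 and 117 counts under siFOXA1.2. The fall in RT112 passed the edgeR quasi-likelihood test under siFOXA1.1 (log2 fold change -3.44 ± 0.47 SE, adjusted p = 2.19e-05) but not under siFOXA1.2 (-1.099 ± 0.391 SE, adjusted p = 0.205). In SCaBER FOXA1 had 0 to 15 counts in every library, so that a knock-down could not be checked at this depth. The summed luminal markers ranged from 1177 to 2195 CPM in RT112 and from 43.04 to 80.1 CPM in SCaBER, and the summed basal markers from 398 to 785 CPM in RT112 and from 2683 to 4427 CPM in SCaBER, each as the line's label says. Within RT112 the luminal sum was at 2045 to 2195 CPM in the controls. It was at 1177 to 1400 CPM under siFOXA1.1 and at 1287 to 1288 CPM under siFOXA1.2, below the controls with either siRNA. Of 12 leukocyte markers, those above the floor in any library numbered 3 in RT112 and 4 in SCaBER, and their sum was at most 7.91 CPM in RT112 and 7.95 CPM in SCaBER. Mitochondrial genes took 18.0 to 21.2% of counts in the other 6 RT112 libraries and 25.7 and 28.2% under siFOXA1.1.

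The lines differed first in which chemokines they made. SCaBER made CXCL1 and CXCL11 at high level and CXCL8, CXCL10, CXCL3, CXCL2, CCL20 and CXCL16 at lower level, whereas RT112 made CXCL16 and little else. CXCL1, CXCL2, CXCL3, CCL2 and CCL5 had 0 counts in all 8 RT112 libraries, which allows a level of up to 0.394 to 0.453 CPM per library. In bulk RNA, more cells making a gene and more RNA per cell cannot be told apart.

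**Figure D1:**
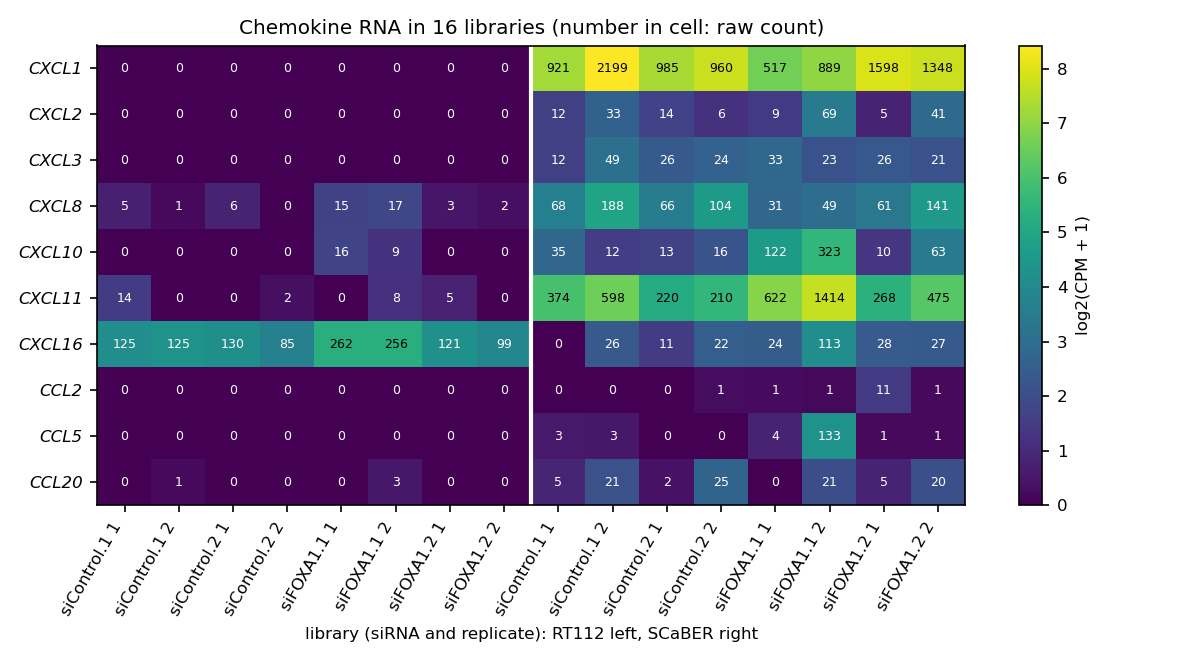
Heat map of the 10 chemokine genes (rows) in the 16 libraries (columns, RT112 to the left of the white line and SCaBER to the right). Colour is log2(CPM + 1) and the number in each cell is the raw count; CXCL1 held 517 to 2199 counts in the SCaBER libraries and 0 in the RT112 libraries.

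CXCL1, CXCL2 and CXCL3 are neighbouring paralogs on the long arm of chromosome 4 (GRCh38.p14 chr4:73869393-73871308, chr4:74097040-74099195 and chr4:74036589-74038689), and CXCL8 lies beside them at chr4:73740569-73743716. CXCL10 (chr4:76021118-76023497) and CXCL11 (chr4:76033682-76036070) form a pair further along the chromosome with 10184 bases between them. CXCL16 (chr17:4733533-4739928), CCL2 (chr17:34255285-34257203) and CCL5 (chr17:35871491-35880360) are on chromosome 17, and CCL20 is on chromosome 2 (chr2:227813842-227817556). All 10 are annotated as protein coding.

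Promoters of 7 of the 10 genes were found in the RefSeq promoter table (GRCh38.p14), which did not include CXCL16, CCL2 and CCL5. The sequences before the start of the gene are shown for the 3 CXCL1 paralogs and for CXCL10 and CXCL11, which both rose in SCaBER under siFOXA1.1. The RNA levels of the paralogs differed widely, and their promoters were nearly the same over the 140 bases shown. Capitals mark matches on either strand to the kappaB consensus (the NF-kB binding motif), to the ISRE core GAAANNGAA (bound by interferon-activated factors) and to the AP-1 site TGANTCA. The 140 bases of CXCL1 are chr4:73869253-73869392 (plus strand), those of CXCL2 chr4:74099196-74099335 (minus strand) and those of CXCL3 chr4:74038690-74038829 (minus strand). The 230 bases of CXCL10 are chr4:76023498-76023727 (minus strand) and those of CXCL11 chr4:76036071-76036300 (minus strand). Each reads 5′ to 3′ and ends at the base before the first base of the gene.
CXCL1 promoter: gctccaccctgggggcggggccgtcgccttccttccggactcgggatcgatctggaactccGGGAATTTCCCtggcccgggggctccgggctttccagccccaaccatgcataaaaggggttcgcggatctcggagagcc
CXCL2 promoter: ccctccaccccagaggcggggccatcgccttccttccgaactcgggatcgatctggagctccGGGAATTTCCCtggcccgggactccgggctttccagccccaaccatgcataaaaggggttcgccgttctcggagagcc
CXCL3 promoter: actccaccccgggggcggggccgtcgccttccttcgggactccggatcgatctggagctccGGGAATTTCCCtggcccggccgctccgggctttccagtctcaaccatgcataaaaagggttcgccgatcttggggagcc
CXCL10 promoter: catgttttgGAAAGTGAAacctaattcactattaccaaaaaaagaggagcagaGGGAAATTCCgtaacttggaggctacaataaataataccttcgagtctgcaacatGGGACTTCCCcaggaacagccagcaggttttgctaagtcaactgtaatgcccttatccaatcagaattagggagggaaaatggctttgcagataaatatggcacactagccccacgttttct
CXCL11 promoter: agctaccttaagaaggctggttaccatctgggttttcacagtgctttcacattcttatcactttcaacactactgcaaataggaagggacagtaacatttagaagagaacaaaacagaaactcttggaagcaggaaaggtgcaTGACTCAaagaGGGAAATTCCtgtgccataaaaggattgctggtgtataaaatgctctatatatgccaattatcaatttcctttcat

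In the paralogs the capitals are 11 bases long because matches on the plus and the minus strand overlap, and they begin 79 bases before the start in CXCL1 and CXCL3 and 78 bases before it in CXCL2. In alignments of these 140 bases, CXCL1 shared 91.5% of columns with CXCL2 and 90.7% with CXCL3. CXCL10 held kappaB matches that begin 177 and 122 bases before the start and an ISRE core 221 bases before it. CXCL11 held an AP-1 site 87 bases and a kappaB match 76 bases before the start, without overlap. Over the 250 bases before the start, 6 of the 7 promoters held the kappaB consensus, against 5.21% of the 35116 promoters in the table. CXCL8 held no full match, but its letters tggaatttcc differ from the CXCL1 match GGGAATTTCC only in the leading letter. The ISRE core was in 3 of 7 (CXCL2, CXCL3 and CXCL10) against 6.88% of all promoters, and the AP-1 site in 2 of 7 (CXCL8 and CXCL11) against 6.57%. The forkhead core TGTTTAC, a motif bound by FOXA factors, was in 0 of 7 and in 2.98% of all promoters. A match is a description of the letters and not evidence of binding, and a missing match is no evidence that a site is absent.

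Under the control siRNAs, 6 of the 10 genes had enough counts for the comparison of the lines, and all 6 passed the test, 5 of them lower and 1 higher in RT112. Of the 12309 genes tested, 43.4% passed, with 22.2% lower and 21.2% higher in RT112, so a difference between the lines was common. The 5 lower genes passed the filter on low counts only through SCaBER, where they are high, so that their direction was set by the filter and their count supports nothing. CXCL1 was at 153, 343, 160 and 212 CPM in the SCaBER control libraries (siControl.1 replicates 1 and 2, then siControl.2 replicates 1 and 2) and at 0 in RT112. Its mean of 217 ± 87.9 CPM (SD, n = 4) was at least 522-fold higher than the RT112 floor (adjusted p = 5.996e-09, edgeR).

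CXCL3 (4.79 ± 2.35 CPM in SCaBER, SD, n = 4) was at least 11.5-fold higher and CXCL10 (3.33 ± 1.82 CPM) at least 8.02-fold higher in SCaBER than the RT112 floor, with adjusted p of 0.000229 and 0.000531. CXCL8, with 11.3, 29.3, 10.7 and 23.0 CPM in SCaBER and 0.657, 0.151, 0.798 and 0 CPM in RT112, differed by -5.42 ± 0.68 (log2, SE) between RT112 and SCaBER (adjusted p = 1.27e-05). CXCL11 differed by -6.69 ± 0.66 (log2, SE, adjusted p = 1.14e-06), and the RT112 libraries held 14, 0, 0 and 2 counts of it. The groups did not overlap for any of these 5 genes, but the filter had kept them only through SCaBER, so this adds no support. The share of all genes without overlap was not counted.

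CXCL16 went the other way. Its control libraries held 16.4, 18.9, 17.3 and 11.8 CPM in RT112 and 0, 4.05, 1.78 and 4.86 CPM in SCaBER, with every RT112 library above every SCaBER library. The difference was 2.63 ± 0.66 (log2, SE, adjusted p = 0.00457, edgeR). CXCL16 too passed the filter on low counts only with the RT112 libraries, where it is high, so its call is no support for the direction. CXCL2 and CCL20 did not pass the filter on low counts in this comparison. In a fit without it, CXCL2 (2.68 ± 1.69 CPM in SCaBER, 0 in RT112) was at least 6.45-fold and CCL20 (2.49 ± 2.40 CPM in SCaBER, 0 to 1 counts in RT112) at least 5.98-fold higher than the RT112 floor, with adjusted p of 0.000431 and 0.00574. CCL2 had at most 1 count and CCL5 at most 3 counts in the control libraries of either line, at or below the floor.

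Levels of different genes were ordered by the authors' TPM, in which counts are divided by gene length. The kit reads transcript ends, so that this division can shift the order of genes of unequal length. In the SCaBER controls CXCL1 came first at 432 ± 188 TPM (SD, n = 4), then CXCL11 at 80.1 ± 35.8 TPM and CXCL8 at 21.1 ± 10.9 TPM. The ranges of these 3 did not overlap (295 to 701, 47.1 to 130 and 11.8 to 34.2 TPM). CXCL10 at 7.20 ± 3.78, CXCL3 at 5.58 ± 2.87, CXCL2 at 4.62 ± 3.05, CCL20 at 4.04 ± 3.90 and CXCL16 at 2.48 ± 2.06 TPM followed, each within the range of its neighbours. In the RT112 controls CXCL16 was at 11.3 ± 2.00 TPM, and no other of the 10 genes exceeded 1.84 TPM in any control library. CXCL2 and CXCL3 were thus far below CXCL1 in SCaBER, and the part of promoter sequence in this was not tested. Of the 50-base stretches in the last 500 bases of the CXCL1 transcript, 10.2% also occur in CXCL2 and 0% in CXCL3. The share of reads that matched both genes was not measured.

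In SCaBER, siFOXA1.1 was accompanied by a rise of the CXCR3 ligands CXCL10 and CXCL11, while the CXCR2 ligands CXCL1 and CXCL8 were at their lowest levels without passing the edgeR test. Of the 8 genes tested, 2 rose and 0 fell. Among the 11902 genes tested 9.26% passed in either direction and 4.47% rose. CCL2 and CCL5 did not pass the filter. The median log2 fold change of the 8 was 0.62, against 0.01 for all genes tested, with 5 of the 8 above 0.

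CXCL10 was at 5.82, 1.87, 2.11 and 3.53 CPM in the control libraries, at 23.1 and 46.7 CPM under siFOXA1.1, and at 1.54 and 9.98 CPM under siFOXA1.2. Both siFOXA1.1 libraries were above every other SCaBER library. The share of all genes with both siFOXA1.1 libraries above or below all others was not counted, for CXCL10 or for CXCL11, CXCL1 and CXCL8 below. Against both controls CXCL10 rose by 3.43 ± 0.63 (log2, SE, adjusted p = 0.00320), and within the batches the log2 ratio of CPM + 1 was 2.28 in batch 1 and 3.69 in batch 2.

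CXCL11, which shares the receptor of CXCL10, was at 62.2, 93.2, 35.7 and 46.4 CPM in the controls, at 118 and 204 CPM under siFOXA1.1, and at 41.3 and 75.3 CPM under siFOXA1.2. The siFOXA1.1 libraries again did not overlap with any other, a separation whose share over all genes was not counted. Against both controls CXCL11 rose by 1.54 ± 0.27 (log2, SE, adjusted p = 0.00261), with within-batch ratios of 1.25 and 1.54. Its control siRNAs differed as well, siControl.1 being above siControl.2 in both batches (log2 difference 0.91 ± 0.33 SE, unadjusted p = 0.0160, adjusted p = 0.621 by edgeR). Against siControl.1 alone the change under siFOXA1.1 was 1.08 and no longer passed (adjusted p = 0.0684), whereas against siControl.2 alone it was 1.99 (adjusted p = 0.00275).

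**Figure D2:**
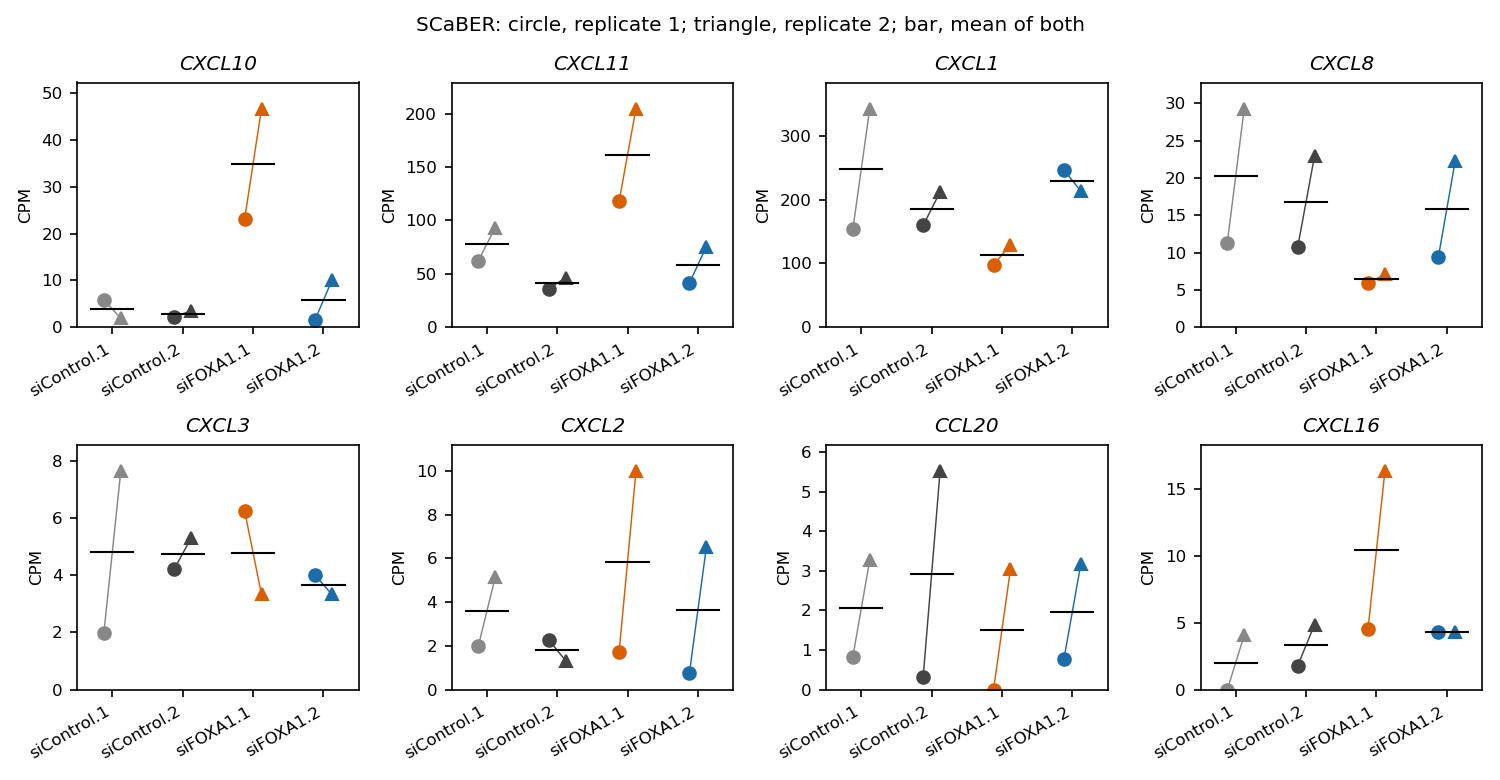
CPM of 8 chemokine genes in the SCaBER libraries by siRNA (circle, batch replicate 1; triangle, batch replicate 2; bar, mean of both), each panel on its own axis from 0. Both siFOXA1.1 points stand above all others for CXCL10 and CXCL11 and below all others for CXCL1 and CXCL8, and CCL20 is higher in replicate 2 for each siRNA.

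CXCL1, the most abundant of the chemokines in the SCaBER controls, was at 97.9 and 129 CPM under siFOXA1.1, below all 4 controls (153 to 343 CPM), and at 246 and 214 CPM under siFOXA1.2. The change against both controls, -0.89 ± 0.27 (log2, SE), did not pass with edgeR (adjusted p = 0.0533) and passed with DESeq2 (-0.88, adjusted p = 0.0155). With the batch replicate as a block it was -0.86 and passed (adjusted p = 0.0204), as it did without siControl.1 replicate 1 (-1.12, adjusted p = 0.00612), against siControl.1 alone (-1.09, adjusted p = 0.0477) and without the filter (adjusted p = 0.00114). It did not pass with limma on TPM (adjusted p of 0.163 and 0.179 at the pseudocounts of 1 and 0.1), against siControl.2 alone (-0.69, adjusted p = 0.205) or without any other single library, where it ranged down to -0.56 with adjusted p up to 0.176. CXCL8 was at 5.87 and 7.09 CPM under siFOXA1.1 against 10.7 to 29.3 CPM in the controls and 9.41 and 22.3 CPM under siFOXA1.2. Both siFOXA1.1 libraries were the lowest of the 8, but the difference from the controls, -1.47 ± 0.54 on the log2 scale, did not pass (adjusted p = 0.113).

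The 4 remaining genes tested in SCaBER did not pass under siFOXA1.1. CXCL2 was at 1.70 and 9.98 CPM under siFOXA1.1 against 2.00, 5.14, 2.27 and 1.32 CPM in the controls (log2 fold change 1.21 ± 0.98 SE, adjusted p = 0.530). CXCL3 was at 6.25 and 3.33 CPM against 2.00, 7.64, 4.22 and 5.30 CPM (0.04 ± 0.81 SE, adjusted p = 0.983). The paralogs CXCL1, CXCL2 and CXCL3 therefore showed no common direction. CCL20 was at 0 and 3.04 CPM against 0.832, 3.27, 0.325 and 5.52 CPM (-0.64 ± 1.45 SE, adjusted p = 0.857). CXCL16 was at 4.54 and 16.3 CPM against 0, 4.05, 1.78 and 4.86 CPM (2.03 ± 0.99 SE, adjusted p = 0.240), with within-batch ratios of 1.55 and 1.67. Its value rested on single libraries, being 0.89 without siFOXA1.1 replicate 2. Without siControl.1 replicate 2, siControl.1 was left with a library at 0 counts of CXCL16, so that the change had no defined size.

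CCL5 stood out in a single library. It had 133 counts (19.2 CPM) in siFOXA1.1 replicate 2 and 0 to 4 counts in the other 7 SCaBER libraries, siFOXA1.1 replicate 1 (4 counts) included. A fit without the filter put the change at 6.61 ± 1.46 (log2, SE, adjusted p = 0.000263), a value that rests on that library. CCL2 had 11 counts (1.70 CPM) in siFOXA1.2 replicate 1 and 0 to 1 counts in every other library. The library siFOXA1.1 replicate 2 held the highest SCaBER level of 5 of the 10 genes (CXCL2, CXCL10, CXCL11, CXCL16 and CCL5). Without it, CXCL10 (2.88, adjusted p = 0.0360) and CXCL11 (1.14, adjusted p = 0.0281) still passed. The summed leukocyte markers were at 4.92 to 7.95 CPM under siFOXA1.1, 4.47 to 6.97 CPM under siFOXA1.2, 3.99 to 4.21 CPM under siControl.1 and 0.162 to 2.43 CPM under siControl.2. PTPRC, CD3D, CD3E, MS4A1, NKG7 and FCGR3B were at 0 counts in every library of both lines. Of all 12 leukocyte markers, 3 in RT112 and 4 in SCaBER were above the floor in at least 1 library. The part of these markers in the chemokine changes was not tested.

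Under siFOXA1.2 in SCaBER, 0 of the 8 genes passed with edgeR, 0 had an unadjusted p under 0.05, and DESeq2 and limma also gave 0. Among all genes 0.042% passed. The log2 fold changes ran from -0.36 ± 0.83 (CXCL3, SE) to 0.82 ± 0.66 (CXCL10, SE). CXCL10 was below all controls in siFOXA1.2 replicate 1 and above them in replicate 2, with within-batch log2 ratios of -0.97 and 1.57.

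The siRNAs against FOXA1 were also compared with each other in SCaBER, where 4.85% of all genes passed and 2.05% were higher under siFOXA1.1. CXCL11 was higher under siFOXA1.1 (1.47 ± 0.33 SE, adjusted p = 0.0192), the only 1 of the 8 genes to pass. This difference did not pass without siFOXA1.1 replicate 2 (1.07, adjusted p = 0.0925) or without siFOXA1.2 replicate 1 (1.105, adjusted p = 0.263). CXCL10 (2.601 ± 0.768 SE, adjusted p = 0.0705) and CXCL1 (-1.01 ± 0.30 SE, adjusted p = 0.0726) did not pass with edgeR, but both passed with DESeq2 (adjusted p of 0.0131 and 0.0249) and with the batch replicate as a block (2.73, adjusted p = 0.0337, and -1.05, adjusted p = 0.0194). With the siFOXA1 siRNAs pooled, 0 of the 8 passed against the controls (CXCL10 2.62 ± 0.74 SE, adjusted p = 0.417) and 2 had an unadjusted p under 0.05. DESeq2 called 1, limma 0, and 0.0084% of all genes passed. Between the control siRNAs, 0 of the 8 passed with edgeR, DESeq2 and limma, CXCL11 alone had an unadjusted p under 0.05, and 0.0672% of all genes passed.

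**Figure D3:**
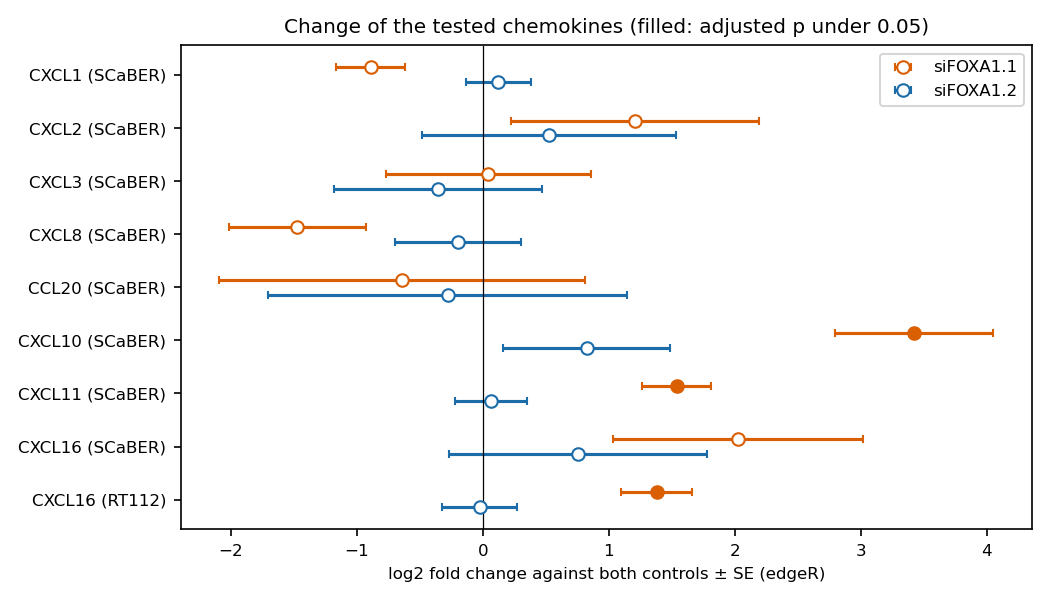
Log2 fold change against both controls with its SE (edgeR) for the 8 chemokines tested in SCaBER and for CXCL16 in RT112, under siFOXA1.1 (orange) and siFOXA1.2 (blue). Filled points passed at an adjusted p under 0.05: CXCL10 (3.43) and CXCL11 (1.54) in SCaBER and CXCL16 (1.38) in RT112, all under siFOXA1.1.

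In RT112, siFOXA1.1 was accompanied by a rise of CXCL16, the one of the 10 chemokines that this line makes most. CXCL16 was at 38.4 and 37.7 CPM under siFOXA1.1, at 16.4, 18.9, 17.3 and 11.8 CPM in the controls and at 17.6 and 13.5 CPM under siFOXA1.2. Both siFOXA1.1 libraries lay above all others. The share of all RT112 genes separated like this was not counted, for CXCL16 or for CXCL10 and CXCL8 below. The log2 fold change against both controls was 1.38 ± 0.28 (SE, adjusted p = 0.000992), and the within-batch ratios were 1.14 and 1.24. The summed leukocyte markers were at 1.18 to 7.91 CPM under siFOXA1.1 (3 of 12 above the floor in a library), 0.137 to 2.77 CPM under siFOXA1.2 and 0 to 0.263 CPM in the controls (0 of 12 above it). Of 7 fibroblast markers 2 were tested, and they went opposite ways under siFOXA1.1 with edgeR. COL1A1 rose (2.80 ± 0.28 SE, adjusted p = 7.23e-07) and LUM fell (-0.78 ± 0.16 SE, adjusted p = 0.00104). The sum of the 7 fibroblast markers was at 103 to 109 CPM, against 84.6 to 137 CPM in the controls. The part of these markers in the rise of CXCL16 was not tested. CXCL16 was the only 1 of the 10 genes to pass the filter in RT112, where 32.6% of the 11986 genes tested passed under siFOXA1.1 and 15.6% rose.

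CXCL16 was also higher under siFOXA1.1 than under siFOXA1.2 (1.40 ± 0.34 SE, adjusted p = 0.00499, with 28.1% of all genes passing). Without siFOXA1.2 replicate 2 this difference was 1.22 and did not pass (adjusted p = 0.0615). Under siFOXA1.2 against the controls it was -0.02 ± 0.30 (SE, adjusted p = 0.989, 2.04% of all genes passing). It did not pass between the control siRNAs (0.34 ± 0.34 SE, adjusted p = 0.790, 2.36% of all genes passing) or with the siFOXA1 siRNAs pooled (0.83 ± 0.38 SE, adjusted p = 0.416, 0.108% of all genes passing). By DESeq2 and limma it likewise did not pass in these 3 comparisons. The genes whose levels followed CXCL16 most closely over the 16 libraries, by Pearson r of log2(CPM + 1) centred on each line, were B4GALT1, a galactosyltransferase (r = 0.913), and N4BP2L2 (r = 0.868). These were the highest of 10685 genes and describe libraries that share siRNAs.

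**Figure D4:**
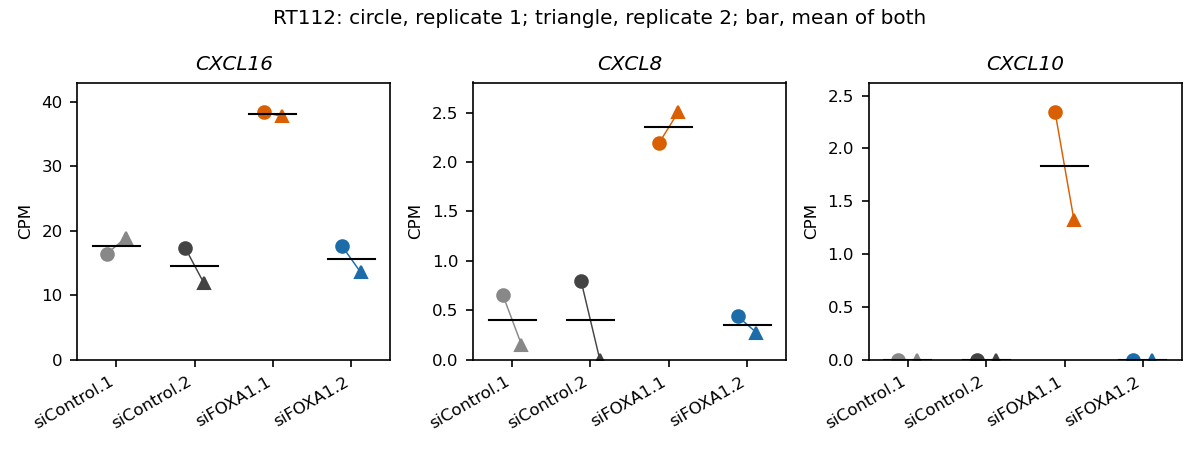
CPM of CXCL16, CXCL8 and CXCL10 in the RT112 libraries by siRNA (circle, batch replicate 1; triangle, batch replicate 2; bar, mean of both), each panel on its own axis from 0. Both siFOXA1.1 libraries are above the other 6 in each panel; the CXCL10 libraries other than siFOXA1.1 are at 0 counts.

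The other chemokines of the 10 were near the floor in RT112 but 2 of them were highest under siFOXA1.1. CXCL10 had 16 and 9 counts (2.34 and 1.33 CPM) under siFOXA1.1 and 0 counts in the other 6 libraries. Its mean was at least 4.41-fold higher than the floor of the controls, and in a fit without the filter it did not pass (adjusted p = 0.101). CXCL8 had 15 and 17 counts (2.20 and 2.50 CPM) under siFOXA1.1 against 5, 1, 6 and 0 counts in the controls and 3 and 2 counts under siFOXA1.2. Without the filter CXCL8 differed from the controls by 2.61 ± 1.99 (log2, SE, adjusted p = 0.446). CXCL11 had 14 counts in siControl.1 replicate 1, 8 counts in siFOXA1.1 replicate 2 and 0 to 5 counts elsewhere, with no separation of the groups. CCL20 had 3 counts in siFOXA1.1 replicate 2 and at most 1 elsewhere.

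The change under siFOXA1.1 was then compared between the lines in a fit of all 16 libraries. CXCL8 lay above its controls in RT112 and below them in SCaBER under siFOXA1.1, and the difference between these changes passed the test (4.06 ± 1.07 on the log2 scale, RT112 minus SCaBER, SE, adjusted p = 0.0453). It rests on 12 counts in the 4 RT112 controls together. It did not pass in 14 of the 16 fits that left out 1 library (3.58 to 6.26, adjusted p 0.0148 to 0.110 over the 16), with either control siRNA alone, or with limma on TPM. CXCL11 (-0.79 ± 1.54 SE, adjusted p = 0.920), CXCL16 (-0.68 ± 0.93 SE, adjusted p = 0.826) and CCL20 (3.27 ± 2.54 SE, adjusted p = 0.595) did not pass. CXCL10 and the other genes at 0 counts in an arm of a line were given no value. Of the 13701 genes in this fit, 3.14% passed. For siFOXA1.2, 0 of the 3 genes given a value passed, 0 had an unadjusted p under 0.05, DESeq2 and limma gave 0, and 0.0438% of all genes passed.

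Between the batch replicates 0 of the 8 chemokines passed in SCaBER with edgeR, and 4 had an unadjusted p under 0.05. CCL20 was at 0.832, 0.325, 0 and 0.771 CPM in batch replicate 1 of siControl.1, siControl.2, siFOXA1.1 and siFOXA1.2, and at 3.27, 5.52, 3.04 and 3.17 CPM in batch replicate 2. All 4 siRNAs had more CCL20 in replicate 2, and the replicates did not overlap (log2 difference 3.07 ± 1.15 SE, unadjusted p = 0.0167, adjusted p = 0.456, edgeR). CCL20 passed the filter on low counts only through the replicate 2 libraries, where it is high. Its direction and lack of overlap are therefore no support for a batch difference, and the share of all genes without overlap was not counted. CXCL8 and CXCL11 were also higher in replicate 2 for each of the 4 siRNAs, by 0.98 ± 0.34 and 0.62 ± 0.17 (log2, SE, unadjusted p of 0.0102 and 0.00172, adjusted p of 0.446 and 0.315, edgeR). The fourth was CXCL1 (unadjusted p = 0.0411, adjusted p = 0.542). Of all SCaBER genes 0.0084% passed between the batch replicates, with 1073 at an unadjusted p under 0.05. In RT112 CXCL16 differed by -0.17 ± 0.24 between them (SE, adjusted p = 0.976), and 0% of all genes passed, with 618 at an unadjusted p under 0.05.

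Among 36 further chemokines on the list, of which 35 were in the table, 2 were tested in RT112 and 4 in SCaBER. CCL22, a ligand of CCR4 on regulatory T cells, was the only one to pass and rose in RT112 under siFOXA1.1 (3.67 ± 0.66 SE, adjusted p = 0.000287), with a value of -1.08 ± 0.94 in SCaBER (SE, adjusted p = 0.559). The difference between the lines passed for CCL22 (4.75 ± 1.13 SE, RT112 minus SCaBER, adjusted p = 0.0268). CCL28, a mucosal chemokine, was at 0 counts in all 4 RT112 controls, so no difference between the lines is given for it. With edgeR 0 of the 4 tested in SCaBER passed with either siRNA, and 0 had an unadjusted p under 0.05. Of 23 chemokine receptors, 4 were tested in RT112 and 2 in SCaBER. Over all genes under siFOXA1.1, 32.6% passed in RT112 and 9.26% in SCaBER, and 3.14% passed for the difference between the lines. The scavenging receptor ACKR2, which removes CC chemokines, rose under siFOXA1.1 in RT112 (2.57 ± 0.85 SE, adjusted p = 0.0261) and ACKR3, which takes up CXCL11 and CXCL12, fell (-1.15 ± 0.21 SE, adjusted p = 0.000368), while 0 of 2 passed in SCaBER.

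Genes of the pathways that induce chemokines were counted next, under siFOXA1.1 against both controls. Over all genes tested, 15.6% rose and 17% fell in RT112, and 4.47% rose and 4.79% fell in SCaBER. Of the interferon signal transducers, 4 of 10 tested rose and 1 fell in RT112, and 3 of 11 rose in SCaBER. STAT2, a transducer of type I interferon signals that acts with IRF9 at the ISRE, rose in both lines, by 1.75 ± 0.31 (log2, SE) in RT112 and 2.53 ± 0.30 in SCaBER. In RT112 IRF9 rose (4.27 ± 0.72 SE) and the kinase JAK1 fell (-1.12 ± 0.16 SE), with values of 1.71 ± 0.62 (adjusted p = 0.108) and -0.23 ± 0.24 (adjusted p = 0.626) in SCaBER. In SCaBER IRF2 rose (0.87 ± 0.24 SE), and in RT112 it was at -0.10 ± 0.24 (SE, adjusted p = 0.795).

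Of the RNA sensors and adaptors, 4 of 10 rose and 1 fell in RT112, and 4 of 11 rose in SCaBER. The cytosolic sensors IFIH1 and DHX58 rose in both lines. For IFIH1 the rise was 2.92 ± 0.46 (log2, SE) in RT112 and 2.02 ± 0.22 in SCaBER, and for DHX58 it was 2.51 ± 0.89 and 1.58 ± 0.35. DDX58, the RIG-I sensor, also rose in both (2.46 ± 0.43 in RT112, 1.25 ± 0.23 in SCaBER), as did the kinase EIF2AK2 (1.202 ± 0.135 and 1.30 ± 0.19), so that the 4 genes that rose were these in each line. The adaptor MAVS fell in RT112 (-1.26 ± 0.15 SE) and was at -0.36 ± 0.18 in SCaBER (SE, adjusted p = 0.248). The median of the list was 0.80 in RT112 and 0.72 in SCaBER, against -0.01 and 0.01 for all genes tested.

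Of the NF-kB subunits and inhibitors, 3 of 14 tested rose and 2 fell in RT112, and 0 of 14 passed in SCaBER. These shares are close to those over all genes, and in SCaBER 3 genes had an unadjusted p under 0.05 (edgeR). RELB (2.65 ± 0.74 SE), NFKB2 (1.16 ± 0.36 SE) and the inhibitor NFKBIA (0.58 ± 0.13 SE) rose in RT112, while NFKBIZ (-1.06 ± 0.20 SE) and the inhibitory protein TNIP1 (-0.79 ± 0.22 SE) fell. Of the inducing cytokines and their receptors, 5 of 14 rose and 1 fell in RT112 and 0 of 15 passed in SCaBER (2 at an unadjusted p under 0.05, edgeR). IL1A (2.97 ± 1.04 SE), the TNF receptor TNFRSF1B (2.15 ± 0.72 SE) and the interferon gamma receptor IFNGR1 (1.44 ± 0.46 SE) rose and IL17RA fell (-1.02 ± 0.31 SE).

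Of the factors that control decay and stability of AU-rich mRNAs, to which chemokine transcripts such as CXCL8 belong, 1 of 9 rose and 4 fell in RT112, and 0 of 9 passed in SCaBER with edgeR, 0 of them at an unadjusted p under 0.05. ZFP36L2 (-0.82 ± 0.13 SE), ELAVL1 (-0.81 ± 0.18 SE) and KHSRP (-0.50 ± 0.10 SE) fell and CNOT7 (0.49 ± 0.17 SE) rose. Among proteases and syndecans that release or bind chemokines, 2 of 5 rose and 2 fell in RT112, and 1 of 7 rose in SCaBER. The sheddases of CXCL16 went opposite ways in RT112: ADAM17 rose (0.77 ± 0.12 SE) and ADAM10 fell (-0.85 ± 0.14 SE). SDC4, a heparan sulfate proteoglycan, rose in both lines (0.91 ± 0.11 SE in RT112 and 1.51 ± 0.15 SE in SCaBER), and SDC1 fell in RT112 (-0.80 ± 0.11 SE) and was at -0.77 ± 0.23 in SCaBER (SE, adjusted p = 0.0511).

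The change under siFOXA1.1 was also compared between the lines for these lists, in the fit of all 16 libraries in which 3.14% of all genes passed. It passed for 1 of 14 NF-kB genes, NFKBIZ (-1.45 ± 0.31, RT112 minus SCaBER, log2, SE, adjusted p = 0.0136), and for 1 of 11 RNA sensor genes, MAVS (-0.91 ± 0.23 SE, adjusted p = 0.0325). With edgeR 0 passed of 11 interferon transducers, 17 inducing cytokines and receptors, 9 decay factors and 8 proteases and syndecans, where 3, 4, 0 and 1 had an unadjusted p under 0.05. A count of calls in RT112 and not in SCaBER is therefore no test that a list differed.

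**Figure D5:**
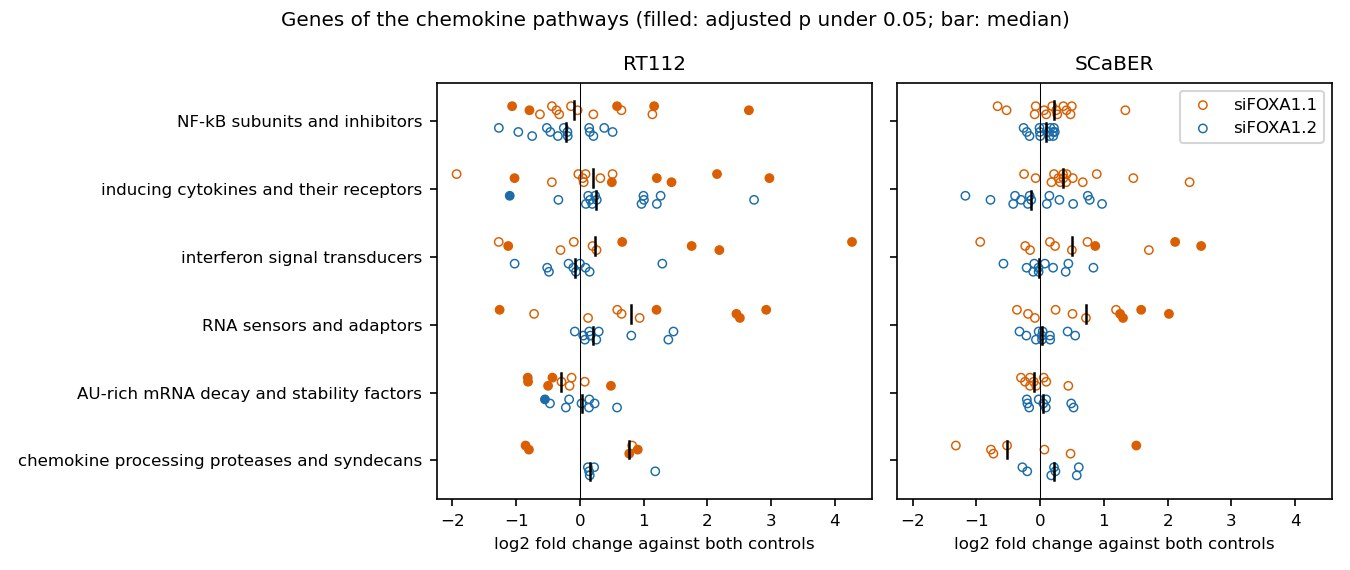
Log2 fold change against both controls of each tested gene in 6 pathway lists (rows), in RT112 (left) and SCaBER (right), under siFOXA1.1 (orange) and siFOXA1.2 (blue). Filled points passed at an adjusted p under 0.05 and the bar is the list's median; in both lines filled orange points to the right of 0 occur in the interferon transducer and RNA sensor lists.

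Under siFOXA1.2 in SCaBER, 0 of 67 tested genes of these lists passed with edgeR, where 0.042% of all genes passed. There 6 had an unadjusted p under 0.05. In RT112 3 of 62 passed between the control siRNAs, where 2.36% of all genes passed. Under siFOXA1.2 2 of the 62 passed in RT112, where 2.04% of all genes passed. IL1RN, the interleukin 1 receptor antagonist, fell by 1.1004 ± 0.264 (log2, SE, adjusted p = 0.0357), and CNOT1, the scaffold of the deadenylase complex, fell by 0.55 ± 0.13 (adjusted p = 0.0343).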

How the data were processed

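RNA from 16 libraries was sequenced with a single-read 3' mRNA kit (QuantSeq). The authors deposited raw counts per gene, the unit used for every test, and TPM, used for levels between genes and as an alternative. The deposited configuration lists TrimGalore 0.6.2 for trimming (minimum quality 20, minimum length 10) and STAR 2.6.1a for alignment to hg38, with GENCODE 29 as the annotation for counting, whereas the study's methods give hg19 as the genome, and 10 ng of siRNA where the labels have 10 nM. Library totals of 4528513 to 7604581 counts set the precision. Per-line fits used edgeR 4.0.16 in R 4.3.3 (TMM, filterByExpr on line and target, quasi-likelihood test, Benjamini-Hochberg over all genes tested, threshold 0.05), with 1 mean per siRNA. On simulated counts with 200 genes changed 4-fold, the siFOXA1.1 comparison recovered 89% of them in RT112 (11986 genes) and 91% in SCaBER (11902 genes). Of the calls, 4.8% in RT112 and 6.2% in SCaBER were false. The changed genes were drawn from those above a minimum of counts, with the same spread set for all genes. These shares therefore do not carry over to chemokines with few counts or a larger spread.

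The 10 chemokines and the lists were chosen with earlier results of these data known. The chemokines and FOXA1 were named whatever their values, and from each list up to 3 genes per direction past the threshold with a mean of at least 20 counts. Groups and batch replicate numbers are from the labels, where the number marks an experiment batch; across genes, same-numbered libraries of different siRNAs deviated together with r of -0.0117 to 0.0199 in RT112 and 0.0215 to 0.246 in SCaBER. The alternatives were DESeq2 1.42.0, its size factors, library totals alone, no filter, the replicate block, leaving out mitochondrial genes, limma 3.58.1 on log2(TPM + 1) and log2(TPM + 0.1), each control siRNA alone and each library left out. A filter on siRNA groups and the comparison of batch replicates were added after the data had been seen. Adapter and index files were not used. Within-batch ratios are log2 ratios of CPM + 1 to the mean of both controls of that batch. Values of some listed genes are not reported here.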

Additional observations from a re-analysis of the deposited data

Results flagged for a closer look

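Of 29 groups of 4 libraries (line and target) with any variation, 7 held a library whose gap to the nearest of the other 3, as a share of the group's range, was above Dixon's 95% critical value. For continuous values chance gives about 1 in 20 such groups, but in 3 of the 7 the other libraries were all at 0 and the share is 1.0 by construction. The share follows each gene. In SCaBER under siFOXA1 these were CXCL16 (0.978) and CCL5 (0.968), both for siFOXA1.1 replicate 2 at 16.3 and 19.2 CPM, and CCL2 (0.971) for siFOXA1.2 replicate 1 at 1.70 CPM. In the SCaBER controls CCL2 stood apart on 1 count in siControl.2 replicate 2 (1.0). In RT112, CXCL11 stood apart in siControl.1 replicate 1 at 1.84 CPM (0.849). CCL20 did so on 1 count in siControl.1 replicate 2 (1.0) and on 3 counts in siFOXA1.1 replicate 2 (1.0), at or under the floor of 3 counts.

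The change of CXCL8 under siFOXA1.1 differed between the lines by 4.06 (log2, RT112 minus SCaBER, SE 1.07, adjusted p = 0.0453, edgeR interaction), with all 4 RT112 control libraries at 6 counts or fewer.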

How the results depend on the processing

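Log2 fold changes were recomputed for every chemokine against the controls and between the lines, and elsewhere for those with an unadjusted p under 0.05. Of 335 such values under alternatives other than leaving out a library, 304 kept direction and side of the threshold, 14 came to pass, 7 no longer passed and 10 reversed. The reversals were of values near 0 that did not pass. Under siFOXA1.2 against the controls in SCaBER, CXCL1 became -0.0756 and CXCL11 -0.388 with siControl.1 alone, CXCL2 -0.00977 and CCL20 0.0100 with the replicate block, CXCL2 -0.0632, CXCL11 -0.00677 and CCL20 0.0337 with limma on log2(TPM + 0.1), and CXCL11 -0.00711 with limma on log2(TPM + 1). CXCL3 became -0.00477 under siFOXA1.1 in SCaBER with library totals alone, and CXCL16 0.145 under siFOXA1.2 in RT112 with siControl.2 alone; the cause was not tested.

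Without the filter on low counts CCL2 and CCL5 were also tested in SCaBER, and CCL5 passed under siFOXA1.1 on 133 counts of 1 library. The count of chemokines called under siFOXA1.1 against the controls in SCaBER was then 5 of 10, against 2 of 8 with the filter. For siFOXA1.1 against siFOXA1.2 in SCaBER it was 3 with DESeq2, 4 without the filter, 3 with the replicate block and 0 with limma on TPM at either pseudocount. For the pooled siFOXA1 siRNAs in SCaBER it was 1 with DESeq2 and 3 without the filter. For the difference between the lines under siFOXA1.1 it was 0 with limma on TPM at either pseudocount and 0 with either control siRNA alone. The replicate block changed no call other than those of CXCL1 and CXCL10 given with their values. Over all genes, the calls under siFOXA1.1 ranged from 3291 to 4145 in RT112 (3903 in the report) and from 526 to 1525 in SCaBER (1102), under siFOXA1.2 from 63 to 430 (245) and from 0 to 42 (5), for siFOXA1.1 against siFOXA1.2 in SCaBER from 108 to 1036 (577), between the control siRNAs from 54 to 476 (283) and from 0 to 91 (8), with siRNAs pooled from 0 to 168 (13) and from 0 to 213 (1), and for the difference between the lines from 206 to 777 (430) and from 0 to 66 (6).

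With 1 library left out, the count called ranged from 0 to 1 for siFOXA1.1 against siFOXA1.2 in RT112, from 0 to 2 in SCaBER, and from 0 to 1 for the difference between the lines. In SCaBER the 2 calls arose without siFOXA1.1 replicate 1 or siFOXA1.2 replicate 2, where CXCL10 passed, and without either siControl.1 library, where CXCL1 passed. Log2 fold changes that reversed ranged, under siFOXA1.1 in SCaBER, from -0.498 to 1.96 for CXCL2, -0.518 to 0.660 for CXCL3 and -6.83 to 0.891 for CCL20. Under siFOXA1.2 in SCaBER they ranged from -0.103 to 0.459 for CXCL1, -1.67 to 1.36 for CXCL2, -0.682 to 0.262 for CXCL3, -0.940 to 0.294 for CXCL8, -1.05 to 1.62 for CXCL10, -0.421 to 0.431 for CXCL11 and -1.60 to 1.25 for CCL20, and in RT112 from -0.230 to 0.150 for CXCL16. A fit that leaves 1 library in an arm assumes that it varies like the others. For CCL20 under siFOXA1.1, the value of -6.83 comes from an arm left at 0 counts and has no defined size. Members with few counts (CCL2, CCL5, CCL20, and all but CXCL16 in RT112) are limited by depth.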
